A study of Mus musculus with 5 samples.

Results

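Steroid dehydrogenases and reductases are the enzymes with which the liver turns hormones on and off by moving a pair of hydrogen atoms on and off the steroid skeleton. 10 of these genes were followed here, namely Hsd17b2, Hsd17b6, Hsd17b11, Hsd17b13, Hsd3b2, Hsd3b3, Hsd3b5, Hsd11b1, Srd5a1 and Akr1c6. Their probes were found by matching the transcript accession that the scanner files give for each probe, with its version number dropped, to the genes in RefSeq. The match gave 12 probes of the 55681 distinct probes on the array, and 10 genes of the 19752 that could be named. Hsd17b13 and Hsd3b2 have 2 probes each and the other genes have 1.

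The study measured liver RNA from mice that overexpress the AP-1 transcription factor subunit Fra-1 (gene Fosl1) in hepatocytes, called Fra-1hep, and from wild-type mice, both on the C57BL/6J background. The age was 26 to 28 weeks in both groups, and both received a high-fat diet (45% of calories from fat) from the age of 4 weeks. Each of 4 individual Fra-1hep mice was labelled with Cy5 and hybridised on its own 2-colour Agilent array against 1 Cy3-labelled pool of RNA from 5 wild-type mice, called the control pool below. A further array carried the dyes the other way round, with wild-type pool RNA labelled Cy5 and pooled Fra-1hep RNA labelled Cy3. The sources used here give neither the mice that make up the Fra-1hep pool, nor the animals' sex, nor the promoter that drives Fra-1.

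The enzymes work in opposed directions. The 17-beta dehydrogenases and Akr1c6 interconvert strong and weak oestrogens and androgens. The 3-beta dehydrogenases act on the first ring of the steroid, Srd5a1 reduces testosterone to the more potent dihydrotestosterone and also clears glucocorticoids, and Hsd11b1 regenerates active corticosterone inside the hepatocyte. Several family members have drifted from steroids to other substrates, and Hsd17b11 and Hsd17b13 are known as proteins of the lipid droplet surface. In the mouse liver many of these genes are expressed differently in males and females under the control of growth hormone.

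Hsd3b5, Hsd3b2 and Hsd3b3 are neighbours in 1 gene cluster, and they are shown by sequence because 1 of them fell and 1 rose in the same livers. The windows are the 250 bases before the annotated start in RefSeq on GRCm38.p6, on the minus strand, at chr3:98645535-98645784 for Hsd3b5, chr3:98763129-98763378 for Hsd3b3 and chr3:98724544-98724793 for Hsd3b2. Hsd17b6, at chr10:128007612-128007861 on the minus strand, is shown as the enzyme with the largest change. Capitals mark runs of at least 10 bases that the Hsd3b5 and Hsd3b3 windows share.
Hsd3b5: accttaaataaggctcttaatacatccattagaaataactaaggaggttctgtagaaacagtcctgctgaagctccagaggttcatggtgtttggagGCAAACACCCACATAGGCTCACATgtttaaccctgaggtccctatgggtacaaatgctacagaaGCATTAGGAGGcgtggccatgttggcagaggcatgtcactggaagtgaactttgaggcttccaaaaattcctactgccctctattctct
Hsd3b3: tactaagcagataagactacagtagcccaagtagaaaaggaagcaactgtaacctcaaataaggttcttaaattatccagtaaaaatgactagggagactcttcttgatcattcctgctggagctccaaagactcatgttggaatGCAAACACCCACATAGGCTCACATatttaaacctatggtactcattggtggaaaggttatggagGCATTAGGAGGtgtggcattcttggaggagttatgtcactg
Hsd3b2: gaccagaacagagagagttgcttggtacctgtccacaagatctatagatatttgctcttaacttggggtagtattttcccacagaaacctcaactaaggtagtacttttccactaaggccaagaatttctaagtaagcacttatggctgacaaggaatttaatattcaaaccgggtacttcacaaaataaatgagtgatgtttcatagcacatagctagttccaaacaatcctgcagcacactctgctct
Hsd17b6: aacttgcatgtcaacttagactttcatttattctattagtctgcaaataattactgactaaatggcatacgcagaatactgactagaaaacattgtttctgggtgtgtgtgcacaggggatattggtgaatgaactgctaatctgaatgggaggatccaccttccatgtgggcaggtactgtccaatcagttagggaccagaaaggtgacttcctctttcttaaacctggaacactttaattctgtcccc
The longest run shared by Hsd3b5 and Hsd3b3 had 24 bases, GCAAACACCCACATAGGCTCACAT, and of 32851 promoter windows in the RefSeq table it was held by 3 windows of these 2 genes, or 0.00913%. Between Hsd3b5 and Hsd3b2, the longest shared run had 8 bases. 3 motifs were searched on both strands in the 11 windows of 300 bases, 250 before and 50 after the start, that matched 9 of the genes. The AP-1 site TGANTCA was in 0 of the 11 windows and in 7.81% of all windows. The STAT5 site TTCNNNGAA was in 0 of 11 and in 8.30% of all windows, and the PPAR direct repeat (AGGTCA, any base, AGGTCA) was in 0 of 11 and in 0.0396%. No match says only that these letters are not in the windows searched.

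All values below are log2 ratios of Fra-1hep over the control pool, and the change of a gene is the genotype coefficient ± SE of a limma fit over all 5 arrays that also holds a dye term. The p-values carry a Benjamini-Hochberg adjustment over all 28126 fitted probes, and a gene was called at an adjusted p under 0.05 at its brightest probe. All 12 enzyme probes were well above background in both channels of all 5 arrays. 7 of the 10 enzymes were called lower and 1, Hsd3b2, was called higher, while Hsd3b3 and Akr1c6 did not pass. The 7 became 4 with Agilent's processed signals, with the deposited value table and when the spread of the mice was also allowed for the control pool. Of all 21542 features, taken at their brightest probe, 15.4% were called lower, 11% higher and 26.4% either way. In the settings just named, in that order, the share of features called lower was 10.8%, 10.8% and 8.17%. The median change of the 10 enzymes was -0.45, against -0.0034 over all features. The 10 were chosen with earlier results of these data known, so the comparison describes them and is no test of the enzyme class. 3 enzymes changed by at least 2-fold, all downwards, namely Hsd17b6, Hsd3b5 and Srd5a1. In whole liver, fewer cells of a type and less RNA per cell cannot be told apart.

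**Figure D1:**
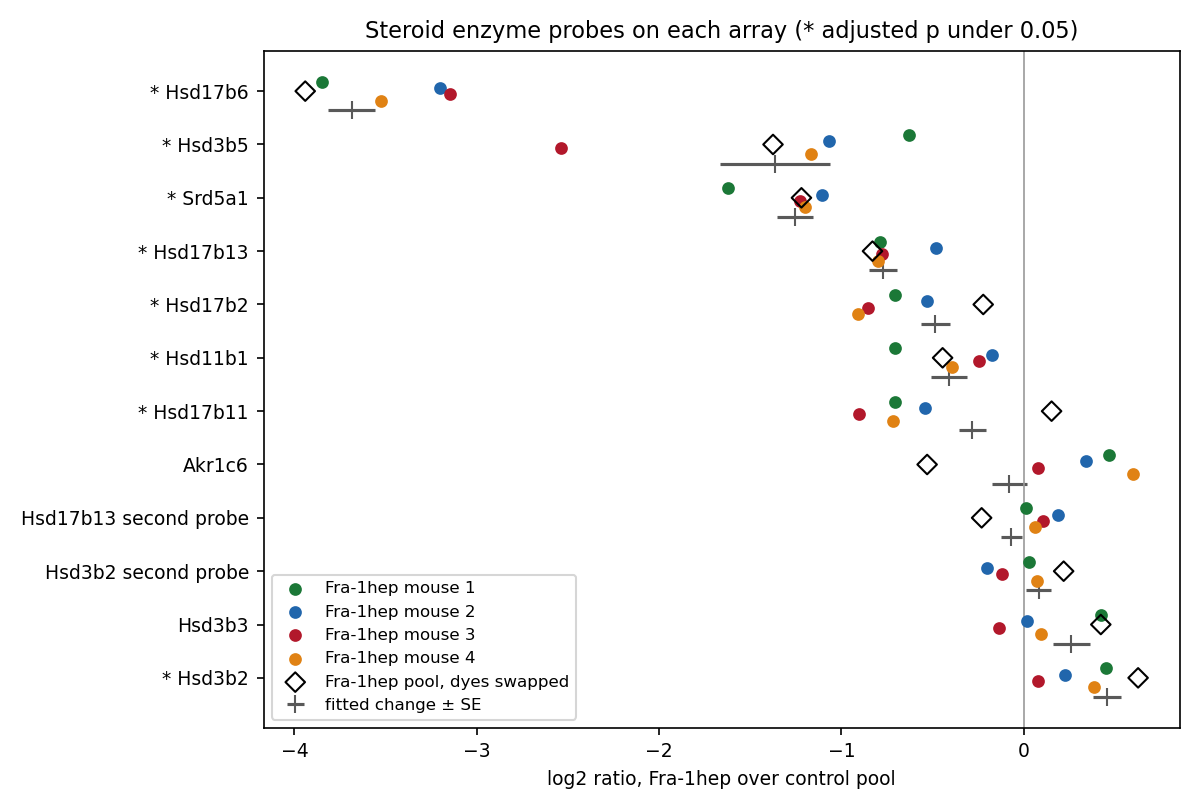
Log2 ratio of Fra-1hep over the control pool (horizontal axis) for each of the 12 enzyme probes (rows), with 1 coloured point for each of the 4 mice, an open diamond for the dye-swapped pool and a grey bar for the fitted change ± SE. All 5 points lie left of 0 for Hsd17b6, Hsd3b5, Srd5a1, Hsd17b13, Hsd17b2 and Hsd11b1, and right of 0 for the brighter probe of Hsd3b2. The diamond lies across 0 from all mice for Hsd17b11, Akr1c6 and the second Hsd17b13 probe. On the same side of 0, it lies outside the range of the mice for Hsd17b2, Hsd17b6, Hsd17b13 and Hsd3b2.

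Hsd17b6 fell most. This enzyme, a relative of the retinol dehydrogenases, oxidises androgen metabolites and helps to set how much dihydrotestosterone and its products a tissue holds. It read -3.85, -3.20, -3.15 and -3.53 in mice 1 to 4 and -3.94 in the Fra-1hep pool (log2 ratios). Every array was more than 3 log2 units below 0, and the pool lay just beyond the lowest mouse. The fitted change was -3.69 ± 0.13, a 12.9-fold lower level (adjusted p = 1.18e-05), which is larger in size than that of 99.96% of the fitted probes. The normalised log2 signal in the Fra-1hep channel was between 7.55 and 8.32 on the mouse arrays and 7.93 in the pool, against 11.4 to 11.67 and 11.87 for the control pool on the same arrays. The spread between mice was an SD of 0.33 (n = 4), wider than for 96.0% of probes. Hsd17b6 lies beside the Rdh genes, with Sdr9c7 as its nearest protein-coding neighbour and 4 protein-coding genes between it and Rdh16. These 4 did not pass, with fitted values of -0.25 for Sdr9c7 (adjusted p = 0.235), -0.51 for Rdh16f2 (adjusted p = 0.116), -0.20 for Rdh7 (adjusted p = 0.123) and 0.013 for Rdh19 (adjusted p = 0.911). Rdh16f2 was nevertheless below 0 on all 5 arrays, at -1.32, -0.32, -0.28 and -1.21 in mice 1 to 4 and -0.23 in the pool. Its second probe was also below 0 on every array. Rdh16 beyond them, a retinol dehydrogenase, was called lower by a change of -1.15 ± 0.20 (adjusted p = 0.00686). For Hsd17b6, Rdh16f2 and Rdh16 the mice from lowest to highest were 1, 4, 2 and 3, while Sdr9c7, Rdh7 and Rdh19 had other orders. Over the 5 arrays, the ratios most like those of Hsd17b6 among 13554 other genes were those of Cfd, at a Euclidean distance of 0.93 log2 units, Gm4956 at 0.99 and Rad51b at 1.29. For Cfd, the Fra-1hep signal was well above background on 0 of 5 arrays, so its ratios are only bounds.

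Srd5a1, the 5-alpha-reductase of the liver, fell in every animal. It read -1.62, -1.11, -1.23 and -1.20 in the mice and -1.22 in the pool. Mouse 1 was the lowest, and the other arrays lay within a narrow band. The fitted change was -1.25 ± 0.10, or 2.39-fold lower (adjusted p = 0.000269), and 99.1% of probes changed less. The control channel of the 4 mouse arrays, where the same pool was measured each time, varied by 0.076 log2 units, against 0.59 in the Fra-1hep channel. The second enzyme of this activity moved the other way. Srd5a2 had ratios of 1.91, 1.59, 1.08 and 1.10 in the mice and 1.91 in the pool, and rose by 1.67 ± 0.15 (adjusted p = 0.000536). Srd5a3, which is best known for making dolichol for protein glycosylation, was lower by a change of -0.25 ± 0.068 (adjusted p = 0.036). The 3 reductase genes therefore did not share 1 direction.

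Hsd3b5 differed most between animals. It is a reductase of the 3-beta family known as a male-enriched liver gene. The ratio was -0.63 in mouse 1, -1.07 in mouse 2, -2.54 in mouse 3 and -1.17 in mouse 4, and -1.38 in the pool. All 5 arrays were below 0, but mouse 3 lay far under the others, and the range over the mice was 1.91 log2 units. The SD over the mice was 0.83 (n = 4), larger than for 99.8% of fitted probes, whose median SD was 0.12. The control pool signal on the same 4 arrays spanned 0.12 log2 units, from 10.18 to 10.30, whereas the Fra-1hep signal spanned 1.98, from 7.69 in mouse 3 to 9.67 in mouse 1. The fitted change was -1.36 ± 0.30, or 2.57-fold lower (adjusted p = 0.0172). Leaving out mouse 3 gave -1.17 (adjusted p = 0.00171), so the call did not rest on that animal. It was lost with Agilent's own processed signals, where the change was -1.53 (adjusted p = 0.106), with the deposited value table, made from those signals (adjusted p = 0.105), and when the spread of the mice was also allowed for the control pool (adjusted p = 0.0625). The ratios most like those of Hsd3b5 over the 5 arrays were those of Cxcl10, at a distance of 1.04, Ms4a7 at 1.05 and the organic anion carrier gene Slco1a1 at 1.09. Each of them also had its lowest ratio in mouse 3, at -1.81, -1.73 and -1.91, but none spread as widely as Hsd3b5. They were picked by nearness on these same arrays, mouse 3 included, and Hsd3b5 was picked for its wide range. Both traits are therefore favoured by the choice and are no separate result.

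The neighbours of Hsd3b5 did not fall. Hsd3b2 and Hsd3b3 are dehydrogenases and isomerases of the same family and have no protein-coding gene between them and the next family member in the cluster. At its brighter probe, Hsd3b2 had ratios of 0.45, 0.23, 0.078 and 0.39 in the mice and 0.63 in the pool. All 5 were above 0, and the pool was the highest. Hsd3b2 rose by 0.46 ± 0.079, or 1.37-fold (adjusted p = 0.00699), and by 0.29 from the mice alone (adjusted p = 0.0197). The second probe, for the same transcript, read 0.029, -0.20, -0.12 and 0.074 in the mice and 0.22 in the pool, with a fitted 0.082 ± 0.069 (adjusted p = 0.427). On each array the brighter probe minus the second was 0.20 to 0.43, so the rise of Hsd3b2 was seen with 1 of its 2 probes only. The mean of both probes gave 0.27 (adjusted p = 0.0318).

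Hsd3b3 read 0.42, 0.016, -0.13 and 0.097 in the mice and 0.42 in the pool. The mice lay on both sides of 0, and the fitted 0.26 ± 0.099 did not pass (adjusted p = 0.0956). Hsd3b6, the next gene of the cluster and no member of the 10, read 0.56, 0.16, 0.080 and 0.47 in the mice and 0.41 in the pool, and rose by 0.37 ± 0.099 (adjusted p = 0.034). Within each array Hsd3b5 was below its neighbours, with differences of -2.41 to -1.05 from Hsd3b3 and -2.62 to -1.08 from Hsd3b2. Although the changes differed, the animals kept 1 order at the extremes in these genes of the cluster. For Hsd3b5, Hsd3b2, Hsd3b3 and Hsd3b6, at the brightest probe, mouse 1 was the highest and mouse 3 the lowest. Hsd3b7, a further gene of the family given below, had mouse 1 the lowest (-1.25) and mouse 2 the highest (-0.72). The second Hsd3b2 probe did not show this order, with mouse 4 the highest and mouse 2 the lowest. Mouse 1 was alone on its slide, so animal and slide cannot be told apart at the upper end of the order. These genes are close in sequence and a probe can also catch a relative, so the value of a single Hsd3b gene is uncertain. The probe sequences were not used here.

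**Figure D2:**
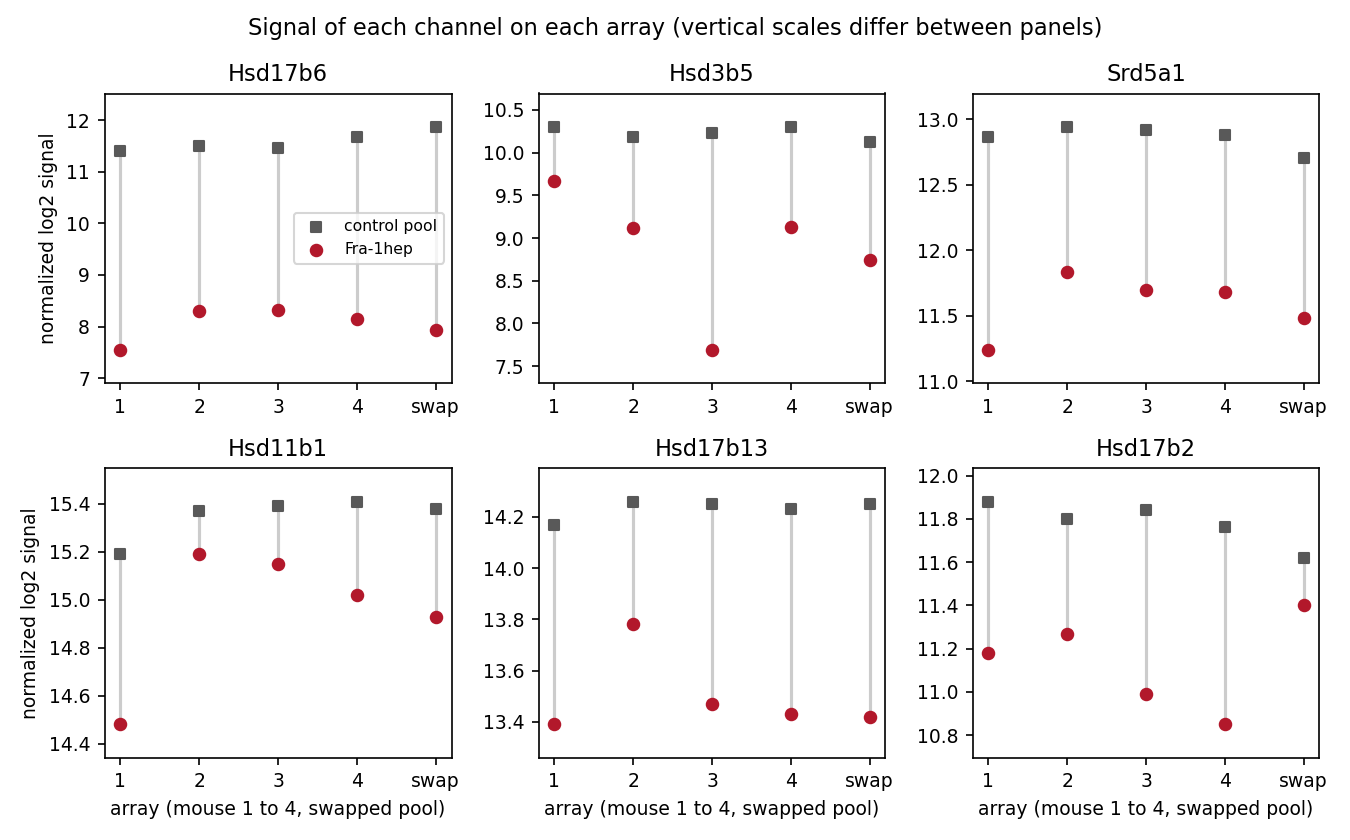
Normalised log2 signal (vertical axis, its own scale in each panel) of the control pool (grey squares) and of Fra-1hep RNA (red circles) on each of the 5 arrays (horizontal axis) for 6 of the enzymes, with a grey line joining the 2 channels of an array. For Hsd3b5 the squares stay between 10.12 and 10.30 while the circles run from 7.69 to 9.67, and for Hsd17b6 the channels are at least 3 log2 units apart on every array.

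Hsd17b13 and Hsd17b11 adjoin on the chromosome with no annotated gene between them, and their products share the lipid droplet. Hsd17b13, whose human counterpart is studied for its links to fatty liver disease, read -0.79, -0.48, -0.78 and -0.80 in the mice and -0.83 in the pool. Mouse 2 was the highest, and the other arrays lay within 0.1 of each other. The fitted change was -0.77 ± 0.075, or 1.71-fold lower (adjusted p = 0.000704). The second Hsd17b13 probe, which is assigned to another transcript of the gene, read 0.013, 0.19, 0.11 and 0.063 in the mice and -0.23 in the pool. Its fitted -0.069 ± 0.058 did not pass (adjusted p = 0.422). On the same array the brighter probe minus the second was -0.88 to -0.60, so the measured ratios of the 2 probes differed. The second probe was dim, with a log2 signal of 6.79 to 7.02 over both channels, and 77.4% of fitted probes were at least as bright. At such signals the added offset of 50 shrinks a ratio, and its change was -0.13 with offset 0 and -0.18 with the processed signals, still short of the threshold (adjusted p = 0.289 and 0.248). The mean of both gave -0.42 (adjusted p = 0.00484).

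Hsd17b11 read -0.70, -0.54, -0.91 and -0.72 in the mice but 0.15 in the pool. All mice were below 0, with a mean of -0.72 and an SD of 0.15 (n = 4), and the pool lay on the other side. The fit, in which the swapped array weighs as much as the mice together, gave -0.28 ± 0.074, or 1.22-fold lower (adjusted p = 0.0311). The mice alone gave -0.72 (adjusted p = 0.000383). The dye coefficient, which is the distance of the mean of the mice from the fitted change, with the pool as far on its other side, was -0.44 (adjusted p = 0.0247) and larger in size than for 98.3% of probes. Its call was lost without mouse 4 (adjusted p = 0.065), with normexp offset 0 (adjusted p = 0.066), with the processed signals (adjusted p = 0.0945), with the deposited table (adjusted p = 0.0944) and with the control spread added (adjusted p = 0.0998). Hsd17b13 minus Hsd17b11 was -0.084 to 0.13 on the mouse arrays and -0.98 in the pool.

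Hsd17b2 inactivates oestradiol and testosterone by oxidation. It read -0.70, -0.53, -0.85 and -0.91 in the mice and -0.22 in the pool. All arrays were below 0, with the pool nearest to it. The fitted change was -0.49 ± 0.080, or 1.40-fold lower (adjusted p = 0.00568), and the mice alone gave -0.75 (adjusted p = 0.000433). The dye coefficient was -0.26 (adjusted p = 0.12).

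Hsd11b1, which makes active corticosterone from its inert keto form, read -0.70, -0.17, -0.24 and -0.39 in the mice and -0.44 in the pool. All 5 arrays were below 0, with mouse 1 the lowest and mouse 2 the nearest to 0. The probe is printed 10 times on each array, and the spots of 1 array varied by an SD of 0.028 to 0.052. The ratios of the mice, each on its own array, varied by an SD of 0.24 (n = 4). The SD between spots does not hold differences between arrays. Mouse 1 was alone on its slide, so animal and slide cannot be told apart. The fitted change was -0.41 ± 0.099, or 1.33-fold lower (adjusted p = 0.0232). The call was lost without mouse 4 (adjusted p = 0.0529), with normexp offset 0 (adjusted p = 0.0584), with the processed signals (adjusted p = 0.0604), with the deposited table (adjusted p = 0.0603) and with the control spread added (adjusted p = 0.0795). H6pd, which supplies the cofactor for Hsd11b1, did not pass, and the probe of the opposing enzyme gene Hsd11b2 was too dim to test.

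Akr1c6, an aldo-keto reductase that makes testosterone from androstenedione in mouse liver, read 0.47, 0.34, 0.080 and 0.60 in the mice and -0.53 in the pool. All mice were above 0 and the pool was below. The fit gave -0.079 ± 0.095 (adjusted p = 0.586), and the mice alone gave 0.37 (adjusted p = 0.0143), so the direction depends on the swapped array. The dye coefficient was 0.45 (adjusted p = 0.0495). Akr1c6 is among the brightest probes of the array, and of the 44 fitted probes at least as bright, 100% had a positive dye coefficient, with a median of 0.66. In 75.0% of those 44 the pool had the opposite sign to all mice, against 16.0% of all fitted probes. The part of brightness in the Akr1c6 result was not tested.

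**Figure D3:**
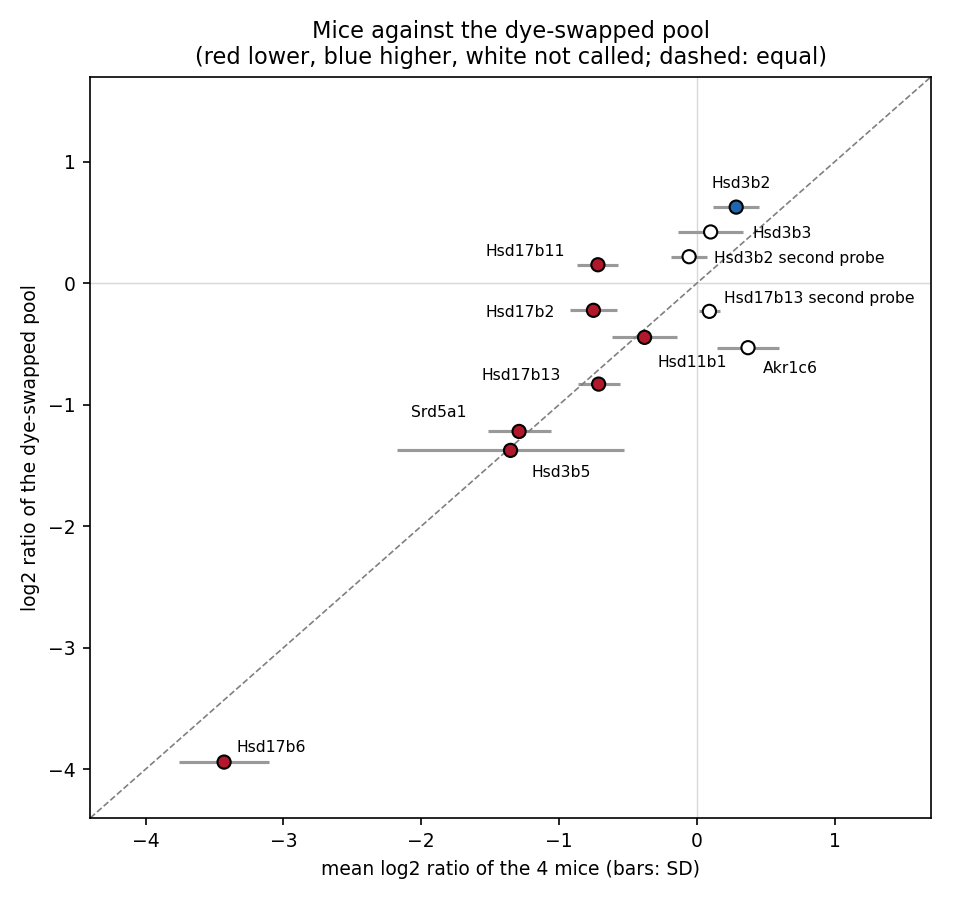
Mean log2 ratio of the 4 mice with its SD (horizontal axis) against the log2 ratio of the dye-swapped pool (vertical axis) for the 12 enzyme probes, red where called lower, blue where called higher and white where not called. Hsd17b13, Srd5a1, Hsd3b5 and Hsd11b1 lie near the dashed line of equal values. Hsd17b2, Hsd17b11, Hsd3b3 and both Hsd3b2 probes lie above it. Below it lie Hsd17b6 (mice at a mean of -3.43, pool at -3.94), the second Hsd17b13 probe, and Akr1c6 with the mice at a mean of 0.37 and the pool at -0.53.

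The animals did not rank alike over the enzymes. Mouse 2 had the highest ratio in 5 of the 10 genes and the lowest in 0, and mouse 3 had the lowest in 5. Mouse 1 was the lowest for Hsd17b6, Hsd11b1 and Srd5a1. Mouse 1 was hybridised on another slide than the other arrays. Without it the change was -3.62 for Hsd17b6, -0.36 for Hsd11b1 and -1.20 for Srd5a1, and all 3 stayed called (adjusted p = 2.25e-05, 0.0129 and 0.000119). The SD over the mice ran from 0.073 for the second Hsd17b13 probe to 0.83 for Hsd3b5. With Agilent's processed signals and with the deposited table these became 0.19 and 1.20, and the lowest SD was then 0.14, at the brighter Hsd17b13 probe.

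Among other genes of the steroid pathway calls fell on both sides, and their counts stand against 15.4% lower and 11% higher over all features. Of 10 other 17-beta and 3-beta dehydrogenase genes that could be tested, 5 were lower and 2 higher, with a median change of -0.24. Hsd3b7, a step of bile acid synthesis, was lower (-0.93 ± 0.096, adjusted p = 0.00091), as was Hsdl2 (-0.56 ± 0.082, adjusted p = 0.00371). Hsd17b4, Hsd17b10 and Hsd17b12, better known from fatty acid and amino acid metabolism, were lower by changes of -0.31, -0.44 and -0.47. Nsdhl, an enzyme of cholesterol synthesis, was higher by 0.78 ± 0.12 at the brighter of 2 probes (adjusted p = 0.00435) and by 0.43 at the other. Of 11 other reductases and partners of the 11-beta enzymes, 3 were lower and 2 higher (median 0.11). Beside Srd5a2, these include the 3-alpha dehydrogenase gene Akr1c14 (-0.45 ± 0.065, adjusted p = 0.00333) and Akr1c19 (0.33 ± 0.063, adjusted p = 0.0101). Of 8 genes of the Rdh cluster, Rdh16 was lower, Rdh5 (0.65 ± 0.070) and Rdh9 (0.34 ± 0.057) were higher, and 5 did not pass.

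Among 16 steroid hydroxylase and conjugation genes 9 were lower and 1 was higher, with a median of -0.29. Cyp3a11, which hydroxylates testosterone, was lower by a change of -2.86 ± 0.18 (adjusted p = 0.000104) and by -2.68 at its second probe. The oestrogen sulfotransferase gene Sult1e1 was lower by -0.72 ± 0.065 (adjusted p = 0.000494), although its Fra-1hep channel was well above background on 2 of 5 arrays only. The gene called higher was Cyp21a1, an adrenal enzyme, at 0.76 ± 0.063 (adjusted p = 0.000355), while its second probe gave 0.15. Over all 9 lists of related genes, 116 of 145 genes could be tested, of which 42 were lower and 16 higher, with a median of -0.17. The higher calls were thus near the 11% over all features.

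**Figure D4:**
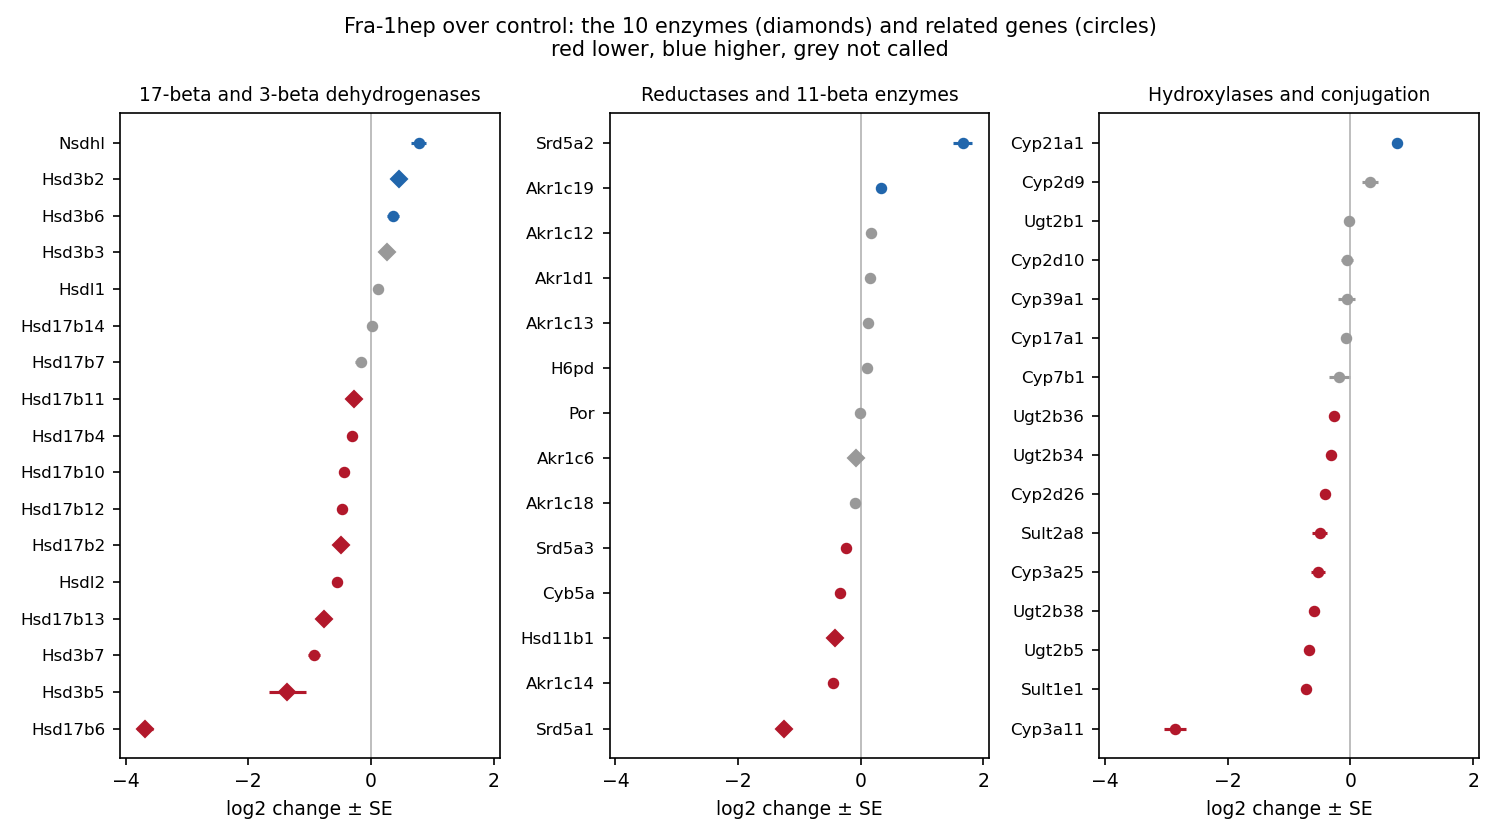
Fitted log2 change ± SE of Fra-1hep over control (horizontal axis) for the 10 enzymes (diamonds) and the tested genes of 3 related lists (circles), 1 gene per row, red where called lower, blue where called higher and grey where not called. Hsd17b6 at -3.69 and Cyp3a11 at -2.86 lie farthest left, and Srd5a2 at 1.67 lies farthest right, in the same panel as Srd5a1 at -1.25.

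Over all features, 15.4% were called lower and 11% higher. Against these, the count of steroid receptors called lower was near the share, and the counts of glucocorticoid targets were only a little above. Of 7 steroid receptor genes, Pgrmc1 was lower (-0.26 ± 0.067, adjusted p = 0.0297) and 6 did not pass, the nearest being Nr3c2 at 0.17 (adjusted p = 0.071) and Pgrmc2 at -0.24 (adjusted p = 0.165). Beside the lower Hsd11b1, 4 of 17 glucocorticoid receptor targets were lower and 3 higher (median -0.18). The metallothionein genes Mt2 (2.36 ± 0.15) and Mt1 (1.83 ± 0.13) and the glucose-6-phosphatase gene G6pc (0.66 ± 0.12) were higher, and Lcn2, an acute phase gene, was lower (-1.80 ± 0.099). Also lower were Cebpd (-0.84 ± 0.16), Serpina6 (-0.55 ± 0.084) and Tat (-0.58 ± 0.17).

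Beside the fall of Hsd3b5, 4 of 16 other male-biased liver genes were lower and 3 higher (median -0.11). These counts were only a little above what 15.4% lower and 11% higher over all features would give. The animals differed, with list medians of 0.027, -0.34, -0.56 and 0.17 in mice 1 to 4 and 0.058 in the pool. Mup21 (-1.75 ± 0.17), Elovl3 (-1.74 ± 0.18) and Ugt2b38 (-0.59 ± 0.057) were lower, and C6, Gstp1 and Cyp2u1 were higher. Slco1a1, named above as near to Hsd3b5 in its ratios, was also lower (-1.20 ± 0.22). Of 17 female-biased genes, 7 were lower and 2 higher (median -0.066). Cyp3a16 (-2.76 ± 0.17) and Cyp3a41b (-2.27 ± 0.16) were lower, and Atp6v0d2 (2.29 ± 0.12) and Cyp2a4 were higher. The Cyp3a probes, like those of Hsd3b genes, can catch relatives. Beside the lower Hsd17b13 and Hsd17b11, 9 of 18 other lipid droplet genes were lower and 1, Mettl7b, was higher (median -0.22). Cidea (-5.48 ± 0.060), Plin4 (-3.80 ± 0.23) and Plin2 (-1.34 ± 0.084), all coat or fusion proteins of the droplet, were lower with the smallest p of the list.

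Facts of the whole experiment bear on these values. Between 47.2% and 61.5% of probes were well above background in a channel of an array, and 0 spots were saturated. The highest shares were those of the mouse 1 array, 54.7% in Cy5 and 61.5% in Cy3, while the other arrays had at most 51.1%. The single Fosl1 probe passed the background limit for Fra-1hep RNA on 0 arrays and for the control pool on 1, so it does not check the genotype labels. Whether the probe lies in the transgene is not stated in the sources used here. The liver label fits the markers, as all 10 hepatocyte genes were measured. Of these, Serpina1a was higher and Tat lower, and the list's median was 0.40 to 0.64 in the mice and -0.44 in the pool, the same sign pattern as Akr1c6. The counts of each marker list stand against 15.4% lower and 11% higher over all features. Of 7 neutrophil genes 6 were higher (median 2.51), with a list median of 3.50 in mouse 2 and 1.75 to 2.09 in the others. Of 9 macrophage genes 4 were lower (median -0.78), with a list median of -0.11 in mouse 2 and -0.95 to -0.90 in the others. The 5 that did not pass had fitted changes of -0.78 to 0.13, with Timd4, Clec4f and Vsig4 above 0. Of 8 stellate and fibroblast genes 6 were lower (median -0.83). Of 9 pericentral genes 4 were lower (median 0.023), and the 5 that did not pass had fitted changes of 0.023 to 0.25. Of 10 periportal genes 1 was lower and 3 were higher (median 0.14). Of 8 endothelial genes 4 were lower (median -0.29). Of 7 exocrine pancreas genes 4 were tested, and 3 of these were higher. The 3 not tested were well above background on at most 1 array. Of the 8 adrenal and gonadal genes 4 were tested, and 2 of these were higher, Cyp21a1 as given above and Fdx1 (0.56 ± 0.081, adjusted p = 0.00355), which many tissues use to pass electrons to mitochondrial enzymes. Nr5a1 (-0.045) and Star (0.0013) did not pass, and Cyp11a1, Cyp11b1 and Hsd3b1 were well above background on 0 arrays. What part these cell types had in the enzyme values was not tested.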

How the data were processed

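Liver RNA labelled from 100 ng per channel, of integrity above 7.8, was hybridised to 5 arrays and read with Agilent Feature Extraction 10.7 per the submitters' processing notes (10.7.3.1 per the file headers). The deposited scanner files give intensity per spot and channel, and the authors' LogRatio (log10 of Cy5 over Cy3). The authors' deposited value table holds the log2 of Fra-1hep over control on all 5 arrays, not centred and built from the processed signals, as a comparison with the scanner values showed (slope 1 on the mouse arrays and -1 on the swapped array).

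Median signals were background-corrected (normexp, offset 50), normalised within arrays by loess, without control spots and 177 outlier spots, and averaged per probe. A probe was kept if 1 of its channels stood well above background on 3 or more arrays (28132, of which 28126 were fitted). Limma 3.58.1 (R 4.3.3) fitted genotype and dye, with Benjamini-Hochberg adjustment, and was tested on simulated data. The control pool is 1 control sample, so the spread of control mice is left out, and an exact sign permutation over 4 mice cannot go below 0.125.

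Members and lists were chosen with earlier results of these data known. The text names all members at every probe, the up to 3 genes of smallest p per list and those against a list's direction, and the 3 profiles nearest to the member of largest change and of widest range. Srd5a3, H6pd, Sdr9c7, Rdh16f2, Rdh7, Rdh19, Hsd17b4, Hsd17b10, Hsd17b12, Hsd11b2 and Hsd3b6 were named as partners or relatives of members after their values were seen. Cebpd, Serpina6 and Tat were named likewise as the other lower glucocorticoid targets. Genes were named through RefSeq (GRCm38.p6), which matched 26056 of 55681 probes. The files name no genome build, so no coordinates of probes were used.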

Additional observations from a re-analysis of the deposited data

Results flagged for a closer look

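Hsd17b11 was lower in all 4 mice and above 0 in the dye-swapped pool, with a dye coefficient, the distance of the mice's mean from the fitted change, of -0.435 (adjusted p = 0.0247 in limma). Akr1c6 parted the other way, with all mice above 0, the pool below and a dye coefficient of 0.451 (adjusted p = 0.0495). The second Hsd17b13 probe showed the same pattern as Akr1c6 at a smaller size, 0.161, which did not pass (adjusted p = 0.176). The sources used here do not say which mice the pool holds, and dye and pool cannot be told apart.

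At the brighter Hsd17b13 probe mouse 2 stood apart from the other mice, with a gap of 0.931 of the range, above Dixon's critical value for 4 samples. Chance flags about 1 in 20 such groups, and 12 probes were examined.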

How the results depend on the processing

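18 alternatives were tried. Hsd17b6 (-4.11 to -3.43), Srd5a1 (-1.29 to -1.20), Hsd17b13 (-0.81 to -0.42), Hsd17b2 (-0.75 to -0.46) and Hsd3b2 (0.27 to 0.51) kept their direction and call under all of them, and Hsd3b3 (0.10 to 0.30) never passed. Of 212 enzyme values, 193 kept direction and side of the threshold, 13 lost the call (of Hsd17b11, Hsd3b5 and Hsd11b1) and 6 changed sign. With the swapped array turned and no dye term, the values that changed sign were 0.19 for Akr1c6, 0.028 for the second Hsd17b13 probe and -0.00023 for the second Hsd3b2 probe. Without the swapped array they were 0.37, 0.092 and -0.055, the enzymes called higher rose from 1 to 2 and the median over the 12 probes moved from -0.35 to -0.55. The share of all features called higher was then 16.7%, against 11% in the main fit. With Agilent's processed signals, with the deposited table and with the control spread added, 5 enzymes were called instead of 8, of which 4 were lower instead of 7. The share of all features called either way was then 20.2%, 20.3% and 13.1%, against 26.4% in the main fit. The control spread also took the probes called over the array from 7019 to 3415. Leaving out each mouse in turn gave 6 to 8 called enzymes, the fewest without mouse 4. Of all features, 20.1% to 25.4% were then called either way, also the fewest without mouse 4. Mouse 1 is alone on its slide, so the slide as a block is the same as leaving it out. No paired analysis was possible because each mouse has 1 array and all share the control pool.

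The control spread is unmeasured, 4 mice limit the precision, and the swapped array weighs as much as all mice together. The median SE of a change was 0.066.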
